A study of Mus musculus with 10 samples.

Results

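Intermediate filament genes were measured in Mina53-KO and wild type (WT) mouse neural stem and progenitor cells (NSPCs), as RNA and as chromatin signal. The set holds 9 genes: nestin (Nes), vimentin (Vim), Gfap, the neurofilament genes Nefl, Nefm and Nefh, Ina, Prph and Synm. They are 9 of the 57180 genes in the RNA table. All CUT&Tag regions that the authors assigned to one of them were taken, which gave 11 of 69418 regions and left Ina and Prph with none. The set was chosen from measured values: a Nes region stood first in CUT&Tag, and Vim, Nefl and Nefm had passed the test in RNA. Those values are therefore given as a description, without a p other than the authors' own. The other genes were taken because they encode related filaments.

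The first group holds NSPCs labelled Mina53-KO, the second WT NSPCs, both from brain and both labelled as not treated. Mina53, now named Riox2, is a JmjC-domain protein to which the series title assigns arginine demethylase activity on histone H4. RNA was sequenced from 3 KO and 3 WT libraries (19923010 to 25939376 counts each), and CUT&Tag, in which a transposase cuts beside an antibody-bound chromatin feature, covered 2 KO and 2 WT libraries (2913959 to 4038765 reads in regions). The labels name no antibody, spike-in, strain, age or brain region, and do not say how the KO was made. They do not say that libraries came from separate animals, so p-values concern the spread between these libraries only. In CUT&Tag, the edgeR p-values match a normal curve at the log2 fold change over its SE. Both therefore rest on spread pooled over regions or summed genes, more than on the 2 libraries a group of each. Riox2 averaged 3.58 ± 0.28 CPM (counts scaled to the size of the library) in KO and 18.5 ± 1.39 CPM in WT cells (SD, n = 3 each; log2 fold change -2.37, SE 0.15, adjusted p = 0.000324, edgeR). The neural stem cell regulator Sox2 averaged 181 ± 19.2 CPM in KO and 177 ± 19.5 CPM in WT cells.

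Intermediate filaments are rope-like polymers of the cytoskeleton, built from proteins with a shared coiled-coil rod, and each cell type uses its own mixture of subunits. Neural stem cells and radial glia build them mainly from vimentin and nestin, where nestin needs a partner such as vimentin to polymerise. Astrocytes add GFAP, neurons use the neurofilament chains with alpha-internexin (the product of Ina), peripherin (Prph) is best known from peripheral neurons, and synemin (Synm) joins filaments of other subunits and links them to the cell periphery.

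Sequence upstream of the start site is shown for Nes and Vim, because each had a CUT&Tag region at an annotated start and their RNA was the most abundant of the set. The sequences run from base -250 to base -1, 5′ to 3′ on the gene's strand, from RefSeq on GRCm38.p6, another build than that of the CUT&Tag regions (GRCm39), so positions in both builds were not set together. Capitals mark a match to 1 of 5 motifs, searched on both strands over 300 bases (250 before the start and 50 after): the GC box GGGCGG, the TATA box TATAAA, the CCAAT box CCAAT, the E box CAGCTG and the SOX core CTTTGT. No motif overlapped another in these sequences.
Nes, chr3:87970843-87971092, plus strand: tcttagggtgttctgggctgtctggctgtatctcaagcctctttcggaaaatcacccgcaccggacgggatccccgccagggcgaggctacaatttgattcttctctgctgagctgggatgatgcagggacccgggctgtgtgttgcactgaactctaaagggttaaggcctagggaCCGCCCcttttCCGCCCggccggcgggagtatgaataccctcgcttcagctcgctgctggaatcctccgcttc
Vim, chr2:13574061-13574310, plus strand: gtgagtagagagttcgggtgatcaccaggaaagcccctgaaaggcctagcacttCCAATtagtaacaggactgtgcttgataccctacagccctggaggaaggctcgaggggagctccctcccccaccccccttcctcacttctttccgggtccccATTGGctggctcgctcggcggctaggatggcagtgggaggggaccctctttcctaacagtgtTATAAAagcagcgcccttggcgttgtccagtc
The Nes sequence holds 2 GC boxes read on the minus strand, at -73 to -68 and -62 to -57, and no TATA box. The Vim sequence holds a TATA box at -32 to -27 and CCAAT boxes at -196 to -192 and, on the minus strand, at -94 to -90. Among 32851 promoter windows of the same length, 35.7% held a GC box, 13.6% a TATA box, 37.4% a CCAAT box, 16.3% the E box and 18.7% the SOX core. Of the 6 genes of the set with a RefSeq window, Gfap alone held none of the 5 motifs, which says nothing about the factors that act there. The CG dinucleotide occurred 18 times in the Nes window, 11 times in the Vim window and 3 times in the Gfap window, against a median of 7 over all windows.

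Vimentin and nestin made up most of the filament RNA in both genotypes. Levels between genes were compared as CPM per kb of the deposited gene length. Vim averaged 1468 ± 206 CPM per kb in KO and 907 ± 101 CPM per kb in WT cells (SD, n = 3 each) and ranked 25 among all listed genes. Nes averaged 167 ± 25.9 CPM per kb in KO and 117 ± 21.4 CPM per kb in WT cells, and Gfap 44.3 ± 4.06 CPM per kb in KO and 34.4 ± 5.30 CPM per kb in WT cells. The neuronal chains were far lower. Ina averaged 2.41 ± 0.27 CPM per kb in KO and 2.31 ± 0.12 CPM per kb in WT cells, Nefm 1.54 ± 0.32 CPM per kb in KO and 0.43 ± 0.078 CPM per kb in WT cells, and Nefl 1.15 ± 0.10 CPM per kb in KO and 0.43 ± 0.050 CPM per kb in WT cells. Synm, Prph and Nefh closed the order with 0.45, 0.071 and 0.068 CPM per kb in KO and 0.35, 0.058 and 0.027 CPM per kb in WT cells. The order of the 9 genes was the same in both genotypes. Between neighbours in it, the library ranges overlapped for Nefm and Nefl and for Prph and Nefh in both genotypes, and for Nefl and Synm in WT cells.

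**Figure D1:**
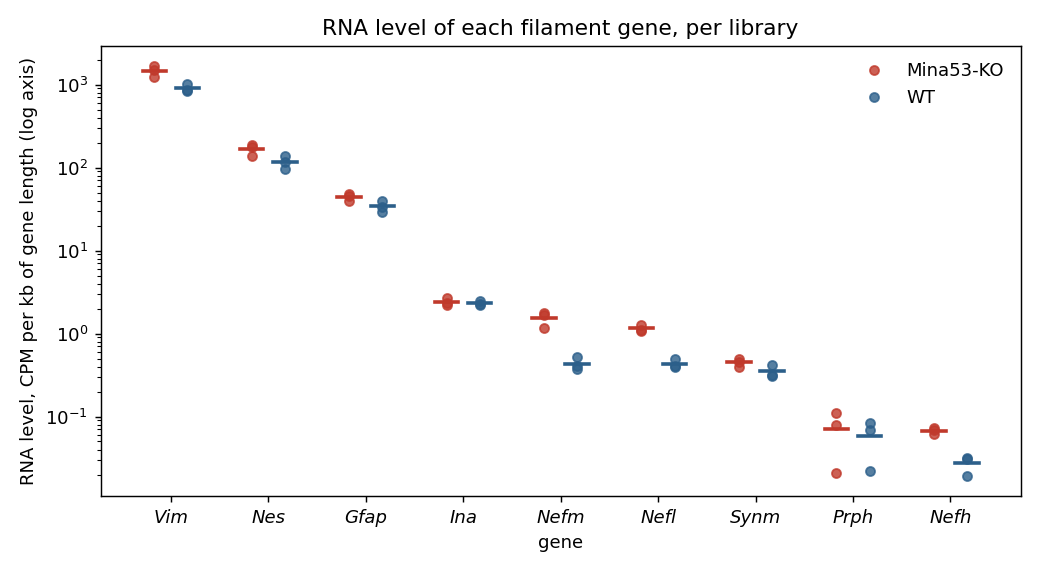
RNA level of the 9 filament genes in CPM per kb of gene length (log axis), in order of level; points are libraries (Mina53-KO left, WT right, n = 3 each) and bars are means. Vim, Nes and Gfap stand above the rest, and the KO and WT points of Vim, Nefm, Nefl and Nefh do not overlap.

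Among the glial and progenitor subunits, the level of Vim was higher in every KO library than in every WT library, while Nes and Gfap overlapped between genotypes. Vim had 3287, 3632 and 2738 CPM in KO and 2241, 1905 and 1822 CPM in WT libraries. The lowest KO library lay above the highest WT library, and the log2 fold change was 0.69 (SE 0.14), a 1.62-fold difference in the means fitted by edgeR. It passed the test with all 6 libraries, which chose Vim for the set. It did not pass without KO 1, KO 2, WT 2 or WT 3, where it was 0.67, 0.59, 0.65 and 0.63. Nes had 1147, 1072 and 842 CPM in KO and 843, 581 and 721 CPM in WT libraries. KO 3 and WT 1 were nearly equal and made the groups overlap, and the difference did not pass the test (log2 fold change 0.51, SE 0.17, adjusted p = 0.183, edgeR). Gfap had 120.3, 126 and 105 CPM in KO and 106, 77.9 and 89.4 CPM in WT libraries, where again KO 3 lay just under WT 1 (log2 fold change 0.36, SE 0.14, adjusted p = 0.280, edgeR). In bulk samples, fewer cells of a type and less RNA per cell cannot be told apart. An adjusted p under 0.05 counts as passing the test here, which 3.43% of the 15298 tested genes did.

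The neurofilament light and medium chains had low levels and the largest fold differences among the 7 tested genes. Nefl, the light chain on which neurofilaments assemble, had 3.61, 4.28 and 3.78 CPM in KO and 1.65, 1.36 and 1.35 CPM in WT libraries. Nefm, the medium chain, had 5.63, 5.86 and 3.89 CPM in KO and 1.73, 1.23 and 1.35 CPM in WT libraries. For both genes the lowest KO value was more than the highest WT value, and the log2 fold changes were 1.42 (SE 0.20) for Nefl and 1.83 (SE 0.24) for Nefm, or 2.68-fold and 3.56-fold. Nefl did not pass without KO 2 (1.34) or WT 3 (1.36), nor Nefm without WT 3 (1.78). Nefh, the heavy chain of mature axons, was under the count filter with 5, 7 and 7 estimated counts in KO and 3, 3 and 2 in WT libraries. These counts did not overlap either, but they were too few for a test.

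The other subunits did not pass the test. Ina, whose product joins the neurofilament chains in central neurons, had 7.51, 8.77 and 7.12 CPM in KO and 7.39, 7.89 and 7.14 CPM in WT libraries (log2 fold change 0.06, SE 0.15, adjusted p = 0.935, edgeR). Its 3 WT values lay inside the KO range, and the ratio of Ina to Nefl per kb was 2.17, 2.14 and 1.97 in KO and 4.68, 6.07 and 5.51 in WT libraries. The ratio differs through Nefl, a gene chosen for its difference, as Ina itself overlapped. Synm had 3.90, 3.53 and 3.11 CPM in KO and 3.29, 2.43 and 2.51 CPM in WT libraries (log2 fold change 0.36, SE 0.20, adjusted p = 0.561, edgeR). Prph had 3, 5 and 1 estimated counts in KO and 3, 1 and 4 in WT libraries, which is too low to test.

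Nefl and Nefm are neighbours, and their RNA values may not be independent. The transcript that the authors' region table assigns to Nefm (chromosome 14, 68320039 to 68362295, minus strand, GRCm39) spans that of Nefl (68321312 to 68326544, plus strand). The labels name a stranded kit, but whether reads were counted by strand is not stated, so reads of the 2 genes could have been split between them. In KO 1 the estimated counts were 114.03 for Nefm and 72.97 for Nefl, which add up to 187 whole counts. In the other 5 libraries both genes had whole counts, with sums of 244 and 197 in KO 2 and KO 3, and 80, 63 and 70.0 in the WT libraries. The sums did not overlap between genotypes, but both genes were chosen for their difference, and a sum does not show which of them differs.

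Over the set, 7 of 9 genes passed the count filter, 3 were called, all with higher levels in KO, and 4 were not. In the same 3 genes each KO library lay above each WT library, as it did in 9.69% of all tested genes. All 7 log2 fold changes were positive, with a median of 0.51, beside 51.1% positive and a median of 0.01 over all tested genes. Since 3 of the 7 were chosen for their difference, these counts are a description. Summed over the 9 genes, the level was 1737, 1885 and 1431 CPM per kb in KO and 1203, 997 and 985 CPM per kb in WT libraries, without overlap, and Vim alone gave 87.1 ± 0.80% of it in KO and 85.5 ± 1.51% in WT cells. The share from Nes was 9.89 ± 0.79% in KO and 11.0 ± 1.28% in WT cells, which overlapped. The share from Gfap was 2.62%, 2.53% and 2.78% in KO and 3.32%, 2.95% and 3.43% in WT libraries, a sum made up mostly of Vim, which was chosen for its higher level in KO, while the mean level of Gfap itself was not lower in KO.

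**Figure D2:**
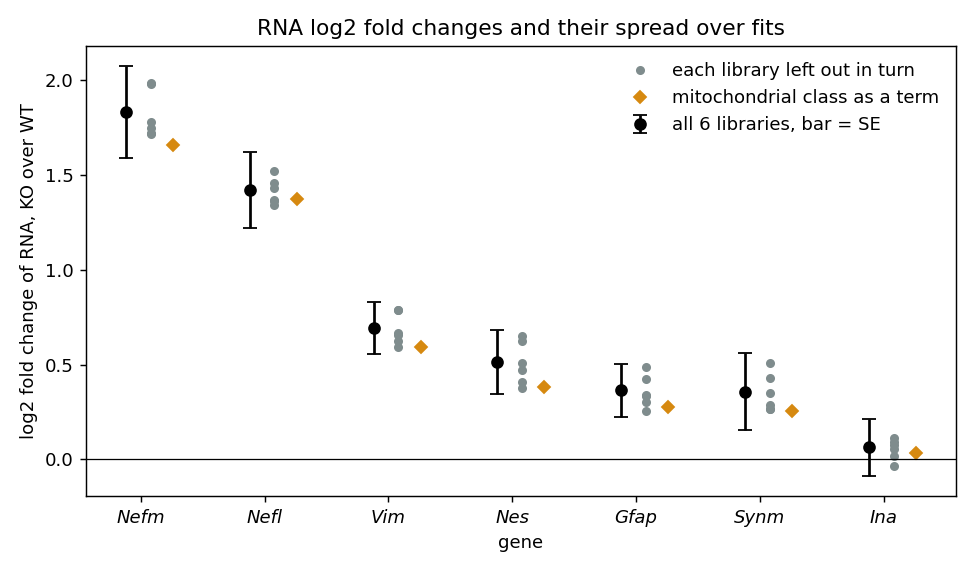
RNA log2 fold change, KO over WT, of the 7 filament genes above the count filter: all 6 libraries with the SE as bar (black), each library left out in turn (grey) and the mitochondrial class of the library as a term (orange). Nefm and Nefl stay highest, and only Ina crosses 0, at -0.04 without KO 2.

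The RNA libraries also parted by the share of counts from mitochondrial genes, which ran across genotypes. It was 2.68%, 2.65% and 4.64% in KO and 2.31%, 5.71% and 3.52% in WT libraries, so KO 1, KO 2 and WT 1 were low and KO 3, WT 2 and WT 3 high. Within the low class the log2 ratio of KO over WT was 0.63 for Vim, 0.40 for Nes, 0.22 for Gfap, 1.26 for Nefl and 1.73 for Nefm. Within the high class it was 0.56 for Vim, 0.37 for Nes, 0.33 for Gfap, 1.48 for Nefl and 1.59 for Nefm. The direction held in both classes for these 5 genes and for Synm (0.18 and 0.34), while Ina differed in sign (0.14 and -0.08). With the class as a term in the fit, Nes had a log2 fold change of 0.38 and an adjusted p of 0.0180 (edgeR), past the threshold. Gfap then had a log2 fold change of 0.27 and an adjusted p of 0.0545 (edgeR). The fit with this term called 1695 of 15298 genes, against 525 without it. Only WT 1 stood for WT cells in the low class, and only KO 3 for KO cells in the high class. In every other setting the adjusted p of Nes was over 0.05 (0.0785 with DESeq2).

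Across the 6 libraries, Nes varied most closely with Gfap and Synm, and Vim with Nefm. Pearson's r of log2 CPM was 0.98 for Nes with Gfap, 0.96 for Nes with Synm, 0.90 for Nes with Vim, 0.98 for Vim with Nefm and 0.98 for Nefm with Nefl. Ina had r between 0.25 and 0.51 with the other 6 genes. Each r is over 6 libraries that share genotype and mitochondrial class, and is a description. Among the 8506 genes with a mean log2 CPM of 4 or more, those most like Nes were Pim2, Inka2, Cerk, Htra1 and Cacna1h (r 0.995 to 0.997), and those most like Vim were Rnf25, Abcb6, Gap43, Mrpl44 and Ckap4 (r 0.995 to 0.998).

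In CUT&Tag, the signal of Nes differed by region. The authors assigned 3 regions on chromosome 3 (GRCm39, plus strand) to it: 87878216 to 87878558 at the start site, 87881207 to 87882075 at 2771 bp and 87889628 to 87889908 at 11192 bp. The middle region lies inside the assigned transcript (87878436 to 87887758), though the authors' annotation classes it as promoter at 2 to 3 kb, and the last lies past its end. CPM here are relative to the reads in regions. The region at 2771 bp had 89.8 and 105 CPM in KO and 30.7 and 41.5 CPM in WT libraries (368 and 355 reads in KO, 95 and 120 reads in WT libraries). Both KO values were far above the higher WT value, and the log2 fold change was 1.43 (SE 0.17), the smallest p of 69209 tested regions. This value chose Nes for the set.
The region at the start site had 32.2 and 26.1 CPM in KO and 15.8 and 15.6 CPM in WT libraries, again without overlap, but the difference did not pass the test (log2 fold change 0.90, SE 0.25, adjusted p = 0.348, edgeR), and 34.7% of all tested regions did not overlap between genotypes. The region at 11192 bp had 19.0 and 25.2 CPM in KO and 20.7 and 27.0 CPM in WT libraries, which overlapped (log2 fold change -0.11, SE 0.24). The authors had called a peak in 2 KO and 0 WT libraries at the start site and at 2771 bp, and in 2 KO libraries and 1 WT library at 11192 bp. In the authors' deposited table, the region at 2771 bp has a log2 fold change of 1.49 and a p-value of 0.0256, with a q-value of 1 as for every region.

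**Figure D3:**
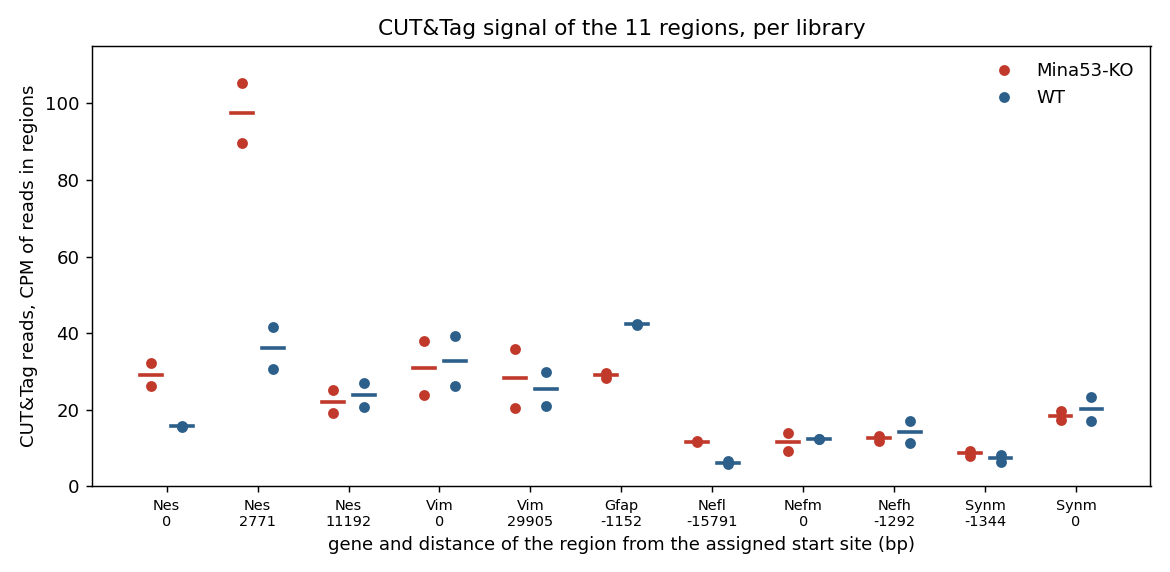
CUT&Tag signal of the 11 regions in CPM of reads in regions, with the gene and the distance from the assigned start site in bp below; points are libraries (Mina53-KO left, WT right, n = 2 each) and bars are means. The Nes region at 2771 bp has 89.8 and 105 CPM in KO and 30.7 and 41.5 CPM in WT, and most other regions overlap.

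The shares of the 3 regions in the Nes reads restate the value that chose Nes, since the region at 2771 bp holds the largest share of these reads in each library. Of 578 and 528 Nes reads in KO and 208 and 243 in WT libraries, the region at 2771 bp held 63.7% and 67.2% in KO and 45.7% and 49.4% in WT libraries. The region at the start site held 22.8% and 16.7% in KO and 23.6% and 18.5% in WT libraries, and the region at 11192 bp held 13.5% and 16.1% in KO and 30.8% and 32.1% in WT libraries. The share at the start site overlapped between genotypes. The lower share at 11192 bp in KO goes with more reads at 2771 bp, as the CPM at 11192 bp overlapped. Reads at 2771 bp per read at 11192 bp, a ratio within each library that needs no scaling, were 4.72 and 4.18 in KO and 1.48 and 1.54 in WT libraries. With 2 libraries a group, no exact test can pass 0.05, and none was run on the shares.

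**Figure D4:**
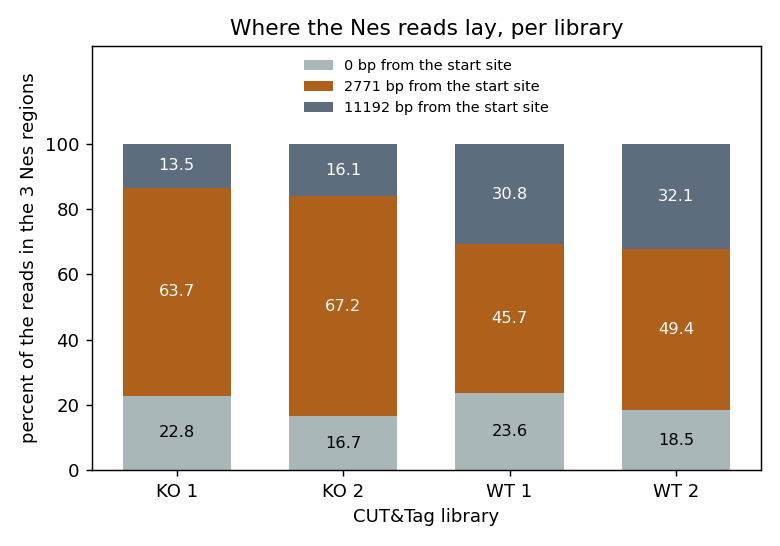
Percent of the reads in the 3 Nes regions that lay in each region, per CUT&Tag library (KO left, WT right). The share at 2771 bp is 63.7% and 67.2% in KO and 45.7% and 49.4% in WT libraries, and the share at 11192 bp is smaller in KO while its own CPM overlap between genotypes.

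No region around Nes passed the test. Of 15 regions of other genes or of no named gene within 100000 bp, 3 were higher and 12 lower in KO, with log2 fold changes of -0.72 to 0.35 and a median of -0.14. By edgeR and by DESeq2 0 of the 15 were called. An unadjusted p under 0.05 (edgeR) was found for 2, beside 5.35% of all tested regions. They lay at Crabp2 (log2 fold change -0.66) and Naxe (log2 fold change -0.72), both lower in KO. As background, the second intron of Nes holds an enhancer active in neural progenitors that is also used in transgenes; the 3 regions were not placed against introns here. Reads from the native gene and from any inserted copy of Nes sequence cannot be told apart in these counts.

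Of the 8 regions at other filament genes, 0 passed the test by edgeR or by DESeq2. An unadjusted p under 0.05 (edgeR) was found for 2 of them, beside 5.35% of all tested regions. Vim, with the highest RNA level, had 23.9 and 37.9 CPM in KO and 39.1 and 26.3 CPM in WT libraries at a start site (chromosome 2, 13578481 to 13579450; log2 fold change -0.10, SE 0.21, adjusted p = 0.971, edgeR). Its region at 29905 bp (13614085 to 13614974) had 20.5 and 35.9 CPM in KO and 21.0 and 29.8 CPM in WT libraries (log2 fold change 0.14, SE 0.22, adjusted p = 0.962, edgeR). Both Vim regions overlapped between genotypes, and KO 1 was the lower KO library in each. At Gfap, the region at -1152 bp, upstream of its start (chromosome 11, 102789178 to 102789790) had 28.3 and 29.6 CPM in KO and 42.4 and 42.2 CPM in WT libraries. Both KO values were lower than both WT values, but the difference did not pass (log2 fold change -0.55, SE 0.20, unadjusted p = 0.00602, adjusted p = 0.773, edgeR).
At Nefl, the region at -15791 bp, upstream of its start (chromosome 14, 68305322 to 68305521) had 11.5 and 11.9 CPM in KO and 5.82 and 6.57 CPM in WT libraries. They did not overlap, on 47 and 40 reads in KO and 18 and 19 reads in WT libraries (log2 fold change 0.91, SE 0.44, adjusted p = 0.925, edgeR). At the start of Nefm (68362123 to 68362684) the signal was 13.9 and 9.19 CPM in KO and 12.3 and 12.5 CPM in WT libraries, which overlapped (log2 fold change -0.09, SE 0.35, adjusted p = 0.984, edgeR). The region at Nefh and both regions at Synm overlapped too, with log2 fold changes of -0.19 (SE 0.33), 0.22 (SE 0.47) and -0.13 (SE 0.26) and adjusted p-values of 0.963, 0.971 and 0.969 (edgeR). In all, 1 of the 11 regions was called, the one at Nes, beside 0.00722% of all tested regions. Of the 11 regions 4 did not overlap, beside 34.7% of all tested regions. The 3 higher in KO were at Nefl and at Nes, at the start site and at 2771 bp, where the last chose the set. The 1 lower in KO was at Gfap.

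Summed per gene, the CUT&Tag reads of Nes were higher in KO, and those of the other 6 genes did not pass the test by edgeR or DESeq2. Of these 6 genes, 2 had an unadjusted p under 0.05 (edgeR), beside 7.62% of all tested genes. The CPM of these sums are relative to the reads in regions with a gene name, so they are not on the scale of the CPM per region above. Nes, whose sum holds the region that chose it, had 254 and 279 CPM in KO and 118 and 145 CPM in WT libraries (log2 fold change 1.02, SE 0.12). Of the 7 genes 1 was called, beside 0.0881% of 13628 tested genes. The log2 fold change of Vim was 0.06 (SE 0.16, adjusted p = 0.962, edgeR) and that of Nefm -0.04 (SE 0.36, adjusted p = 0.990, edgeR), the 2 genes with called RNA differences and a region at a start site. Nefl had 0.96 (SE 0.46, adjusted p = 0.634, edgeR) and Gfap -0.50 (SE 0.20, adjusted p = 0.537, edgeR). The sign was the same in both assays for Nes, Nefl, Vim and Synm and opposite for Gfap and Nefm. The CUT&Tag sign of Vim, Nefm and Synm turned when single libraries were left out, and Gfap passed the test in neither assay.

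**Figure D5:**
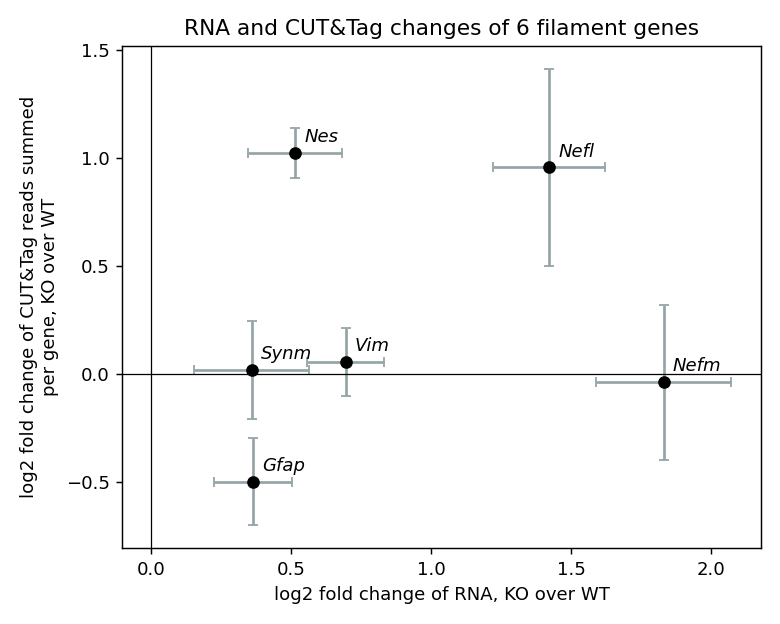
Log2 fold change of RNA (x axis) and of CUT&Tag reads summed per gene (y axis), KO over WT, for the 6 filament genes tested in both; bars are SE. Nes lies at 0.51 and 1.02, Vim at 0.69 and 0.06, and Nefm at 1.83 and -0.04.

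Genes that act with these filaments were read from lists. Of 21 other intermediate filament genes, 8 were tested and 0 called by edgeR (median log2 fold change 0.28; 3 with an unadjusted p under 0.05 and 1 called by DESeq2), and 7, all keratins, had no count in any library. The 3 were Bfsp2 (0.79, adjusted p = 0.0792, edgeR), Iffo1 (0.40, adjusted p = 0.326, edgeR) and Iffo2 (0.36, adjusted p = 0.364, edgeR). Bfsp2 was higher in KO without overlap, the other 2 overlapped, and Krt222 alone of the 8 had a negative value (-0.14). The value nearest to 0 was that of the nuclear lamin gene Lmnb1. It averaged 329 ± 34.9 CPM in KO and 326 ± 48.7 CPM in WT cells (log2 fold change 0.01, SE 0.14, adjusted p = 0.989, edgeR). Of 14 tested genes of linkers, chaperones and transport, 1 was higher and 0 lower in KO by edgeR, beside 3.43% called among all tested genes. The list median was 0.03, with 3 genes at an unadjusted p under 0.05 (edgeR) and 3 called by DESeq2. The called gene, Kif5c, a kinesin heavy chain, averaged 7.81 ± 0.75 CPM in KO and 4.70 ± 0.18 CPM in WT cells (log2 fold change 0.73, SE 0.15, adjusted p = 0.0419, edgeR). By edgeR 0 of 17 kinases, phosphatases and modifiers of filaments were called (median -0.09) and 0 of 20 transcription regulators of Nes or Gfap (median -0.02). In each of these 2 lists 3 genes had an unadjusted p under 0.05 and DESeq2 called 2. For all lists, the matching values over the 15298 tested genes were 13.7% with an unadjusted p under 0.05 (edgeR) and 958 genes called by DESeq2.

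Some cell type markers other than filament genes differed between genotypes too, in both directions, and their part in the filament results was not tested. The 12 neuron markers, filament genes left out, summed to 984, 979 and 1179 CPM in KO and 711, 894 and 852 CPM in WT libraries, without overlap. Map2, which did not pass, gave most of that sum (758 ± 147 CPM in KO and 641 ± 108 CPM in WT cells). Of the 11 tested, with a median log2 fold change of 0.24, 1 was higher in KO and 0 lower, beside 3.43% called among all genes: Gap43, a growth cone gene, averaged 205 ± 31.2 CPM in KO and 107 ± 12.8 CPM in WT cells (log2 fold change 0.94, SE 0.15). In this list 5 genes had an unadjusted p under 0.05 (edgeR) and DESeq2 called 3. Over all 15298 tested genes these values were 13.7% and 958 genes. Dcx (1.59, adjusted p = 0.0999, edgeR), Tubb3 (0.88, adjusted p = 0.103, edgeR) and Syn1 (0.29, adjusted p = 0.280, edgeR) were higher in KO without overlap. Snap25 (-0.56, adjusted p = 0.186, edgeR) was lower in KO without overlap. Syt1 (-0.59, adjusted p = 0.591, edgeR) had a negative value too, but overlapped. None of these passed the test by edgeR. The 11 astrocyte markers summed to 3517, 3514 and 2954 CPM in KO and 4852, 3642 and 4326 CPM in WT libraries, and of the 11 tested (median -0.27) 3 were lower in KO (S100b, Sparcl1 and Aldoc, with log2 fold changes of -1.52, -1.10 and -0.59). Of 11 neural stem and radial glia markers 1 was lower in KO, the glutamate transporter gene Slc1a3 (log2 fold change -0.47, SE 0.10), which averaged 1683 ± 98.5 CPM in KO and 2333 ± 87.7 CPM in WT cells. The sum of the list was 4177 to 4329 CPM in KO and 4567 to 5103 CPM in WT libraries, but its median log2 fold change was 0.03. DESeq2 called 2 of its genes, and 4 had an unadjusted p under 0.05 (edgeR). Besides Slc1a3, these 4 were Pax6 (-0.49, adjusted p = 0.0571, edgeR), Hes5 (0.81, adjusted p = 0.244, edgeR) and Msi2 (0.25, adjusted p = 0.343, edgeR). Pax6 was lower and Msi2 higher in KO without overlap, Hes5 overlapped, and none of them passed by edgeR. Among the other lists, Myrf (log2 fold change 0.85) was higher in KO, as 1 of 8 tested oligodendrocyte lineage genes (list median 0.04). Flt1 (1.12) was higher in KO, as 1 of 3 tested endothelial and pericyte genes (list median 1.12), and all 3 had an unadjusted p under 0.05 (edgeR). The list summed to 62.7, 55.5 and 62.8 CPM in KO and 30.7, 23.5 and 31.8 CPM in WT libraries, without overlap. Flt1 gave most of that sum (56.4 ± 4.12 CPM in KO and 25.9 ± 4.02 CPM in WT cells), and 2 genes of the list had no count in any library. Acta2 (-1.03) and Foxc1 (-0.85) were lower in KO, as 2 of 5 tested fibroblast and meningeal genes, whose list median was 0.06. These calls stand beside 3.43% called among all tested genes. The 6 microglia markers summed to at most 0.35 CPM in KO and 0.58 CPM in WT libraries and the 6 erythroid markers to at most 0.51 CPM in KO and 0.34 CPM in WT libraries, with 2 and 3 of them at 0 in all libraries.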

How the data were processed

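RNA-seq and CUT&Tag libraries were grouped by genotype label and title. Per the submitters' processing notes, HISAT2, StringTie and the GRCm39 build were used, with no version named. How reads were counted, by strand or not, and which peak caller was used are not stated there. RNA values were deposited by the authors in units of expected counts (estimated counts per gene, not scaled), 30800 of 343080 values not whole, rounded for the tests. The deposited CUT&Tag table holds whole read counts for regions merged over 4 libraries, RPM, the authors' log2 fold change, p-value and q-value, peak marks and gene assignment; coordinates are GRCm39.

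Both tables were tested whole with edgeR 4.0.16 in R 4.3.3 (glmQLFit robust, glmQLFTest, TMM, filterByExpr with a minimum count of 10), KO against WT, Benjamini-Hochberg over all features, threshold 0.05; the SE is the log2 fold change over the square root of F. CUT&Tag reads were also summed per assigned gene, which left out the 29889 of 69418 regions without a gene name. CPM are TMM-scaled. Log2 CPM for correlations had a prior count of 2. Without input or spike-in, a CUT&Tag change common to all regions cannot be measured. The fits were also run on simulated counts with less spread between libraries than these data, so that run does not show how they perform at the real spread.

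The alternatives used DESeq2 1.42.0, RLE size factors, library totals, other count filters, the replicate block, the mitochondrial class, promoter regions alone and each library left out. The totals behind the deposited RPM were added after seeing the data. The genes and lists were chosen with earlier results of these data known. All genes of the set were named, plus up to 3 called genes with the smallest p of each list, the 5 genes most like Nes and Vim, and Riox2. The lamin, Sox2, the neighbours of Nes and the other uncalled genes of the lists were named after their values were seen.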

Additional observations from a re-analysis of the deposited data

How the results depend on the processing

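The called RNA genes numbered 525, against 958 with DESeq2, 1695 with the mitochondrial class as a term and 145 to 506 without each library. Correlations of same-numbered deviations were 0.46, -0.37 and 0.27 in RNA, where only KO 2 and WT 2 differed in mitochondrial class. In CUT&Tag the value was 0.016, the same for both pairs because each group holds 2 libraries. These values do not settle whether the replicate numbers pair the libraries. With the replicate block 229 genes and 9 regions were called, and Vim, with a log2 fold change of 0.69, did not pass (edgeR). The calls of Vim, Nefl and Nefm lost without single libraries stand beside these genes above; those fits have fewer libraries, and no other cause was tested. The 5 called regions (2 higher and 3 lower in KO) became 1 to 15 without each library, and 4 higher and 1 lower with the totals behind the deposited RPM. The 12 called genes of summed reads became 1 with DESeq2, 3 with promoter regions alone and 3 to 18 without each library.

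In RNA the log2 fold change of Ina ran between -0.035 (without KO 2) and 0.11. Without each CUT&Tag library in turn, which leaves 1 library in a group that is assumed to vary like the other, these log2 fold changes changed sign: -0.32 to 0.087 for the Nes region at 11192 bp, -0.45 to 0.14 for the Nefh region, -0.43 to 0.17 for the Nefm region, -0.46 to 0.22 and -0.31 to 0.50 for the Vim regions at 0 bp and 29905 bp, and -0.34 to 0.12 for the Synm region at 0 bp. Summed per gene, the ranges were -0.41 to 0.19 for Nefh, -0.39 to 0.22 for Nefm, -0.10 to 0.15 for Synm and -0.33 to 0.39 for Vim, and promoter regions alone gave 0.017 for Nefm and -0.00013 for Vim. The log2 fold change of the Nes region at 2771 bp, which chose the gene, was 1.23 to 1.66 without each library, as a description. Without division by length 5 of 9 genes kept their place in the order, and 4 of the 10 genes most like Nes or Vim were also among the 5 nearest by Spearman's rho. Depth limits Nefh and Prph, with at most 7 counts in a library.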
